A study of Mus musculus with 6 samples.

Results

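The genes described here encode the antioxidant and detoxifying defense that is governed by the transcription factor NRF2 together with the glutathione and thioredoxin systems. They were taken from the gene table by symbol: the 21 glutathione S-transferase genes named by class and number, of the classes A, M, P, T, O, K and Z, and 21 named genes for NRF2 and its inhibitor, glutathione synthesis, quinone and heme breakdown, peroxide and superoxide removal, the thioredoxin system and ferritin. In all, 42 of 23282 gene rows were members, and the rule itself used no measured value.

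RNA was sequenced from cultured mouse astrocytes of an Ink4a-/- line (written Ink4a/Arf-/- in the paper), which lacks a tumor suppressor locus in control and JAG1 libraries alike. The cells had received either the empty vector pcDNA3.1-puro (control, 3 libraries) or pcDNA3.1-JAG1-puro, which carries the Notch ligand JAG1 (JAG1-overexpressing, 3 libraries). The labels give the control libraries the genotype WT, which was read as without JAG1, and the others the genotype JAG1 overexpression. Whether replicates stand for separate transfections, whether the line was 1 clone, and the age and sex of the source animals are not given in the sources used here.

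NRF2, encoded by Nfe2l2, is bound in unstressed cells by KEAP1, which hands it to a CUL3 ubiquitin ligase for destruction. Oxidants and electrophiles modify KEAP1, NRF2 then accumulates in the nucleus, pairs with small MAF proteins and binds antioxidant response elements in front of genes that make glutathione, reduce thioredoxin and conjugate or reduce toxic compounds. In the brain, astrocytes are known as the cells in which this pathway is most readily induced, and they release glutathione that neurons use to make their own.

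The libraries held between 14341634 and 20489062 reads counted on genes, and the common biological variation between replicates, as a coefficient, was 0.0770. Values are given as CPM, reads per 1e6 after TMM normalization, and because QuantSeq reads come from the 3′ end of transcripts they are compared between libraries and not between genes. Jag1 went from 10.3 ± 1.18 to 14.2 ± 0.862 CPM (SD, n = 3), or by a log2 change of 0.46 (adjusted p = 0.00446, edgeR's quasi-likelihood test), and the counts do not tell plasmid from cellular transcripts. Of 10 astrocyte markers, Gfap and Aqp4 were at 0 reads in every library, and the 6 that had enough reads were all lower in JAG1 libraries, the sum of the list going from between 337 and 398 CPM to between 123 and 137 CPM. Markers of fibroblast and mural cells went from between 628 and 637 CPM to between 254 and 299 CPM, with 4 of 5 tested lower, Col1a2 higher, and Lum and Rgs5 at 0. Neuronal markers summed to between 96.9 and 107 CPM in control and between 58.3 and 61.4 CPM in JAG1 libraries, with Map2 higher, Tubb3 lower, and Snap25 and Syt1 at 0. Markers of the oligodendrocyte lineage (at most 4.80 CPM), of microglia and macrophages (at most 4.33 CPM) and of endothelium (at most 0.268 CPM) were near the limit of detection in both groups, with Cx3cr1 the only called gene among them. The part of these shifts in the values below was not tested, and in RNA from whole cultures fewer cells of a type and less RNA per cell cannot be told apart.

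The defense genes did not move as a block. Of the 42 genes, 35 had enough reads to be tested, and in JAG1-overexpressing astrocytes 13 of them were higher and 13 lower at an adjusted p under 0.05, while 9 were not called. Among all 11712 tested genes, 55.1% were called, 27.4% higher and 27.7% lower. The share of 37.1% in each direction lay above these, with Gstp1 and Gstp2, whose reads cannot be told apart, counted as 2. Outside chromosomes 15 and 19, 30% of tested defense genes were higher and 40% lower, beside 26.5% each way of all tested genes there. The defense genes were read more deeply than most genes, with a median of 70.5 CPM against 22.3 CPM over all tested genes. Where the mean reached 10 CPM, a limit set after the data were seen, 12 of 29 defense genes were higher (41.4%) and 9 were lower (31%). Over all genes at that level, 30.1% were higher and 27.0% lower. At a fold change of at least 1.5, 4 of the 35 defense genes were higher, close to the 11.9% of all tested genes. At the same limit 9 of the 35 were lower, beside 14.6% of all tested genes. The median log2 fold change of the 35 genes was −0.02 and that of all tested genes was 0.00386. The range ran from −2.27 for Gstm5 to 1.10 for Gstm7, both genes with few reads. The JAG1 libraries lay wholly above the control libraries for 14 of the 35 (31.1% of all tested genes) and wholly below them for 13 (30.9% of all tested genes). The reads on all 42 genes together went from between 9981 and 10031 CPM in control to between 10104 and 10467 CPM in JAG1 libraries, about 1% of each library.

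**Figure D1:**
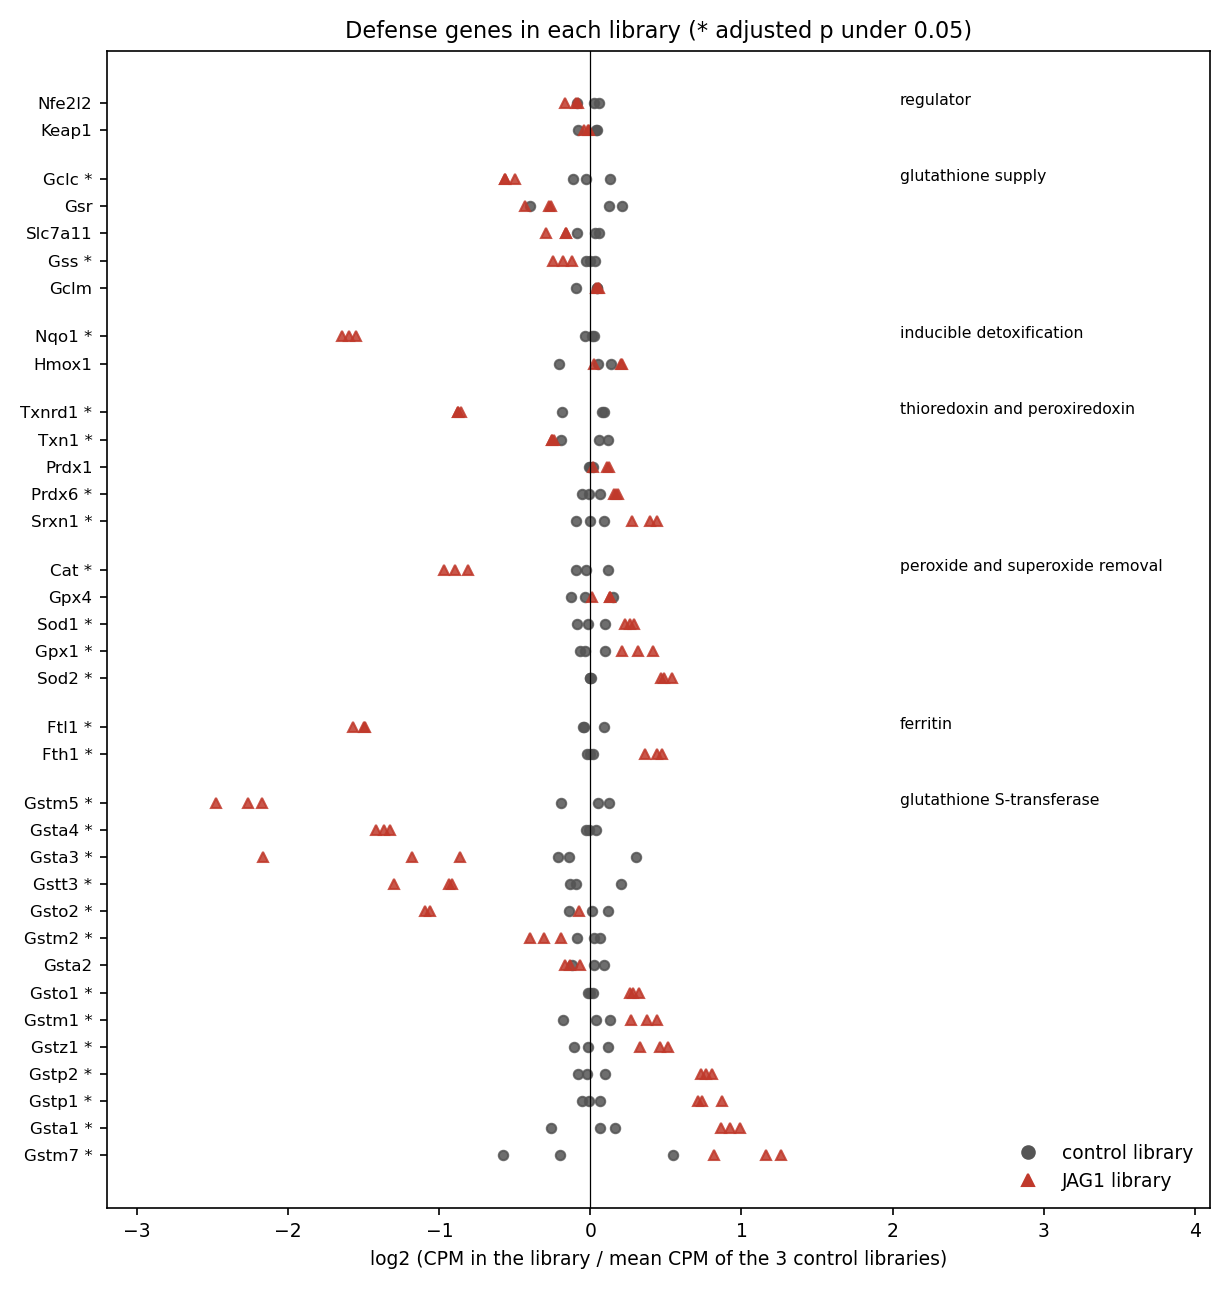
Each point is the CPM of 1 library divided by the mean CPM of the 3 control libraries, on a log2 axis, for the 35 tested defense genes in 7 groups by role; circles are control libraries, triangles JAG1 libraries, and an asterisk marks an adjusted p under 0.05. Nqo1, Ftl1, Gsta4, Txnrd1 and Cat lie far to the left of their control libraries, Gstp1, Gstp2 and Gsta1 to the right, and Nfe2l2 and Keap1 overlap with theirs.

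Promoter windows of 300 bases, from 250 bases before to 50 bases after an annotated transcription start (RefSeq, GRCm38.p6), were searched on both strands for the core of the antioxidant response element, TGACNNNGC, where N is any base. Windows were at hand for 36 of the 42 genes, the others being Gsta4, Gstt2, Gclc, Gsr, Hmox1 and Prdx6. The core was found in a window of 9 of the 36 genes, or 25%, beside 14% of all 27025 genes with a window. All 9 were tested genes, which made 30% of the 30 tested defense genes with a window, beside 16.9% of all 8857. Of all 32851 windows, 12.4% held it. Among tested defense genes it was in 3 of 12 that were higher, 3 of 11 that were lower and 3 of 7 that were not called (Nfe2l2, Gclm and Prdx1), so that letters of the core were present whatever the direction of the gene. The 6 called genes with a match are shown because they include genes that rose and genes that fell; the capitals mark the 9 bases of the match, on either strand. A match describes the letters of the window and not a bound site. The windows lie at chr3:107895604-107895903 (plus strand) for Gstm5, chr1:21240335-21240634 (plus strand) for Gsta3, chr10:82858956-82859255 (plus strand) for Txnrd1, chr3:107931565-107931864 (minus strand) for Gstm7, chr2:152105274-152105573 (plus strand) for Srxn1 and chr16:90220512-90220811 (plus strand) for Sod1, and Txnrd1 and Gstm7 have further annotated starts whose windows held no match. Genes that were lower in JAG1 libraries come first.
Gstm5: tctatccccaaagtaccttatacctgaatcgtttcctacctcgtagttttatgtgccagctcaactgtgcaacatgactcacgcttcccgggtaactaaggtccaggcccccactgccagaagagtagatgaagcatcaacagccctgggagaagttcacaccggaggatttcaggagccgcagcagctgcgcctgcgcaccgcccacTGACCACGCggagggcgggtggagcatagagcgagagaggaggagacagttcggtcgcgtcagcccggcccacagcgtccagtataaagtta
Gsta3: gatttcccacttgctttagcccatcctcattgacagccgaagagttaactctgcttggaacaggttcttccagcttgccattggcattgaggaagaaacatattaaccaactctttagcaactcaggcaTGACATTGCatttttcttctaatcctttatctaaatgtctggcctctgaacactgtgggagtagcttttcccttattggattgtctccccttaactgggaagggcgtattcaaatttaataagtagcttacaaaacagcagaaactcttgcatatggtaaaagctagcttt
Txnrd1: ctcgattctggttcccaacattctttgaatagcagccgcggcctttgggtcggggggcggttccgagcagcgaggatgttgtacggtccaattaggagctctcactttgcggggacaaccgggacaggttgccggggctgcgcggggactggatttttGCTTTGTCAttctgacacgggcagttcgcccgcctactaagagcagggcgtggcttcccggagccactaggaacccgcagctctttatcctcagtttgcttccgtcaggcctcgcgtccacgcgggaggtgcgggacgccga
Gstm7: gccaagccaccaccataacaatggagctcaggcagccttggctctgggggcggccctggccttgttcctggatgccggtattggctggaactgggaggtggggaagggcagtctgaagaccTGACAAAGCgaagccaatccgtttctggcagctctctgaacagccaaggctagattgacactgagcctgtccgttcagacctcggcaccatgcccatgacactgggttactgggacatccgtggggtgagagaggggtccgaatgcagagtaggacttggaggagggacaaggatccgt
Srxn1: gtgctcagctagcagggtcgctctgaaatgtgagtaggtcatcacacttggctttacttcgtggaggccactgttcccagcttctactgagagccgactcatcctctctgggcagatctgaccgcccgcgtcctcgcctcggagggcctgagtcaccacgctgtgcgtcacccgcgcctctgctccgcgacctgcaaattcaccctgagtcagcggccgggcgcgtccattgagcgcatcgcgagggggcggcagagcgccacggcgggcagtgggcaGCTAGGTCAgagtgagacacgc
Sod1: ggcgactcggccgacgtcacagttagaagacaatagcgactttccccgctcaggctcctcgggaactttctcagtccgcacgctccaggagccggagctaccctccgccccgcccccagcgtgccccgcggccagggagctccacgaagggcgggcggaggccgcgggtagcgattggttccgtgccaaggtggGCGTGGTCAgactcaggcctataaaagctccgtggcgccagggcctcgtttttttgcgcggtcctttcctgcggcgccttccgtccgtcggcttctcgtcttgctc

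Transcripts of the regulators themselves did not pass the test. Nfe2l2, whose product NRF2 is controlled mainly at the level of protein, had 74.1, 79.9 and 81.9 CPM in the control libraries and 74.4, 73.5 and 70.0 CPM in the JAG1 libraries. The groups overlapped through control replicate 1, and the log2 fold change was −0.11 (SE 0.06, adjusted p = 0.141, edgeR's quasi-likelihood test). Keap1, the sensor that holds NRF2 back, had 144, 143 and 132 CPM in control and 139, 139 and 136 CPM in JAG1 libraries. Its log2 fold change of −0.02 (SE 0.05, adjusted p = 0.749) was below its standard error and its JAG1 libraries lay inside the range of the control libraries. These counts do not measure the amount or the activity of the NRF2 protein.

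Of the 2 inducible detoxification genes, 1 fell by a wide margin and the other was not called. Nqo1, a quinone reductase that is a standard readout of NRF2 activity, had 98.1, 101 and 102 CPM in the control libraries. In the JAG1 libraries it had 34.3, 32.1 and 33.3 CPM. The groups were far apart and tight, and Nqo1 was 3.02-fold lower, a log2 fold change of −1.60 (SE 0.06, adjusted p = 3.42e-09). Hmox1, the heme oxygenase that opens heme to biliverdin, iron and carbon monoxide, had 73.7, 69.1 and 57.9 CPM in control and 77.2, 68.1 and 77.2 CPM in JAG1 libraries. The groups overlapped, and the log2 fold change was 0.15 (SE 0.09, adjusted p = 0.183). Without control replicate 1, the highest control library, the change of Hmox1 was called at 0.23 (adjusted p = 0.0285). The promoter window of Nqo1, which reaches 250 bases before the start, held no match to the core, and sequence further upstream was not searched.

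Among the genes that supply glutathione, the catalytic subunit of the first enzyme fell and its modifier subunit did not. Gclc, the catalytic subunit of glutamate-cysteine ligase, which sets the pace of glutathione synthesis, had 77.7, 82.5 and 92.2 CPM in control and 59.4, 56.8 and 56.9 CPM in JAG1 libraries. All JAG1 libraries lay below all control libraries, with a log2 fold change of −0.54 (SE 0.07, adjusted p = 7.06e-05). Gclm, the modifier subunit of the same enzyme, had 56.7, 62.4 and 62.5 CPM in control and 62.1, 62.6 and 62.9 CPM in JAG1 libraries. The groups overlapped, and the log2 fold change of Gclm was 0.05 (SE 0.06, adjusted p = 0.554). The number of Gclc reads per Gclm read, a pair chosen after the values were seen, went from 1.37, 1.32 and 1.47 in control to 0.957, 0.908 and 0.905 in JAG1 libraries, with no overlap between the groups.

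Slc7a11, the cystine transporter that brings in the cysteine for glutathione, had 22.1, 24.0 and 24.4 CPM in control and 21.0, 21.0 and 19.1 CPM in JAG1 libraries. The groups did not overlap, but the log2 fold change of −0.20 (SE 0.08, adjusted p = 0.0575) missed the threshold and passed it in 3 of 15 other settings, among them without control replicate 1 at −0.25 (adjusted p = 0.0276). Gss, glutathione synthetase, which adds the last residue, had a log2 fold change of −0.18 (SE 0.07, adjusted p = 0.0470). This call was lost whichever library was left out, with adjusted p between 0.0504 and 0.154. Gsr, which returns oxidized glutathione to its reduced form, had 90.3, 129.7 and 138 CPM in control and 88.4, 99.4 and 98.8 CPM in JAG1 libraries, so that control replicate 1 stood with the JAG1 libraries. Its log2 fold change was −0.32 (SE 0.13, adjusted p = 0.0529), and without control replicate 1 it was −0.49 (adjusted p = 7.53e-06). Of the 5 supply genes, 2 were lower (40%, beside 27.7% of all tested genes). None was higher, beside 27.4% of all tested genes.

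**Figure D2:**
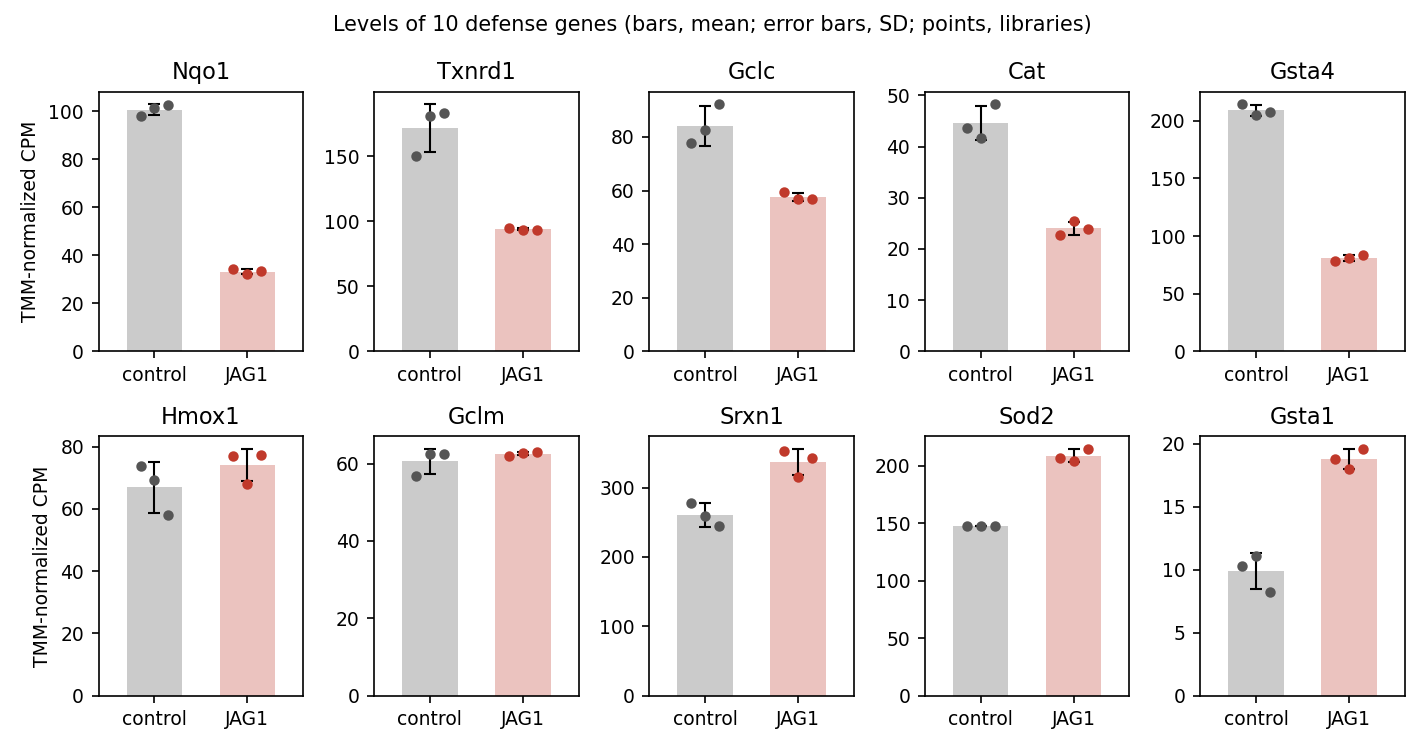
TMM-normalized CPM of 10 defense genes in control (gray) and JAG1 (red) libraries; bars are means of 3 libraries from 0, error bars are SD and points are libraries. Nqo1 dropped from a mean of 101 to 33.3 CPM and Gsta4 from 209 to 80.9 CPM, Hmox1 and Gclm overlapped between the groups, and Srxn1, Sod2 and Gsta1 were above every control library.

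The thioredoxin system was split between its reductase, which fell, and the enzyme that repairs peroxiredoxins, which rose. Txnrd1, the cytosolic thioredoxin reductase, had 151, 182 and 183 CPM in control and 94.7, 93.7 and 93.4 CPM in JAG1 libraries. The JAG1 libraries were nearly equal to one another and below every control library, with a log2 fold change of −0.87 (SE 0.07, adjusted p = 2.04e-06). Txn1, the thioredoxin that Txnrd1 reduces, had 1470, 1748 and 1824 CPM in control and 1408, 1421 and 1411 CPM in JAG1 libraries. Its log2 fold change of −0.25 (SE 0.07, adjusted p = 0.0120) was no longer called without control replicate 2, at −0.22 (adjusted p = 0.0592). As for Gsr, control replicate 1 had the lowest control value of Txnrd1 and of Txn1. The same held for Nfe2l2, Gclc, Gclm, Slc7a11 and Nqo1, among others. Control replicate 1 had the highest control value of Keap1, Hmox1, Srxn1, Sod1 and Prdx6, among others. Of the library pairs within a group, control replicates 1 and 3 lay furthest apart, at 16.2 (chi-square divided by its degrees of freedom). The other pairs within a group lay at 3.80 to 7.30, and pairs across the groups at 65.8 to 88.8.

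Srxn1, sulfiredoxin, which restores overoxidized peroxiredoxins, had 278, 259 and 244 CPM in control and 353, 315 and 343 CPM in JAG1 libraries. It rose by a log2 fold change of 0.37 (SE 0.06, adjusted p = 0.000369), with no overlap between the groups. The match to the core in its window begins 28 bases after the start. Prdx6, a peroxiredoxin that uses glutathione, rose by 0.17 on the log2 scale (SE 0.05, adjusted p = 0.0116). The call of Prdx6 was lost without control replicate 2, at a log2 fold change of 0.16 (adjusted p = 0.0553). Prdx1, the main cytosolic peroxiredoxin, had a log2 fold change of 0.09 (SE 0.05, adjusted p = 0.151) although its JAG1 libraries, at 1113 to 1195 CPM, were all above its control libraries, at 1088 to 1108 CPM.

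Among the enzymes that remove superoxide and hydrogen peroxide, both dismutases rose and catalase fell. Cat, the peroxisomal enzyme that splits hydrogen peroxide, had 43.7, 41.7 and 48.2 CPM in control and 22.8, 25.4 and 23.9 CPM in JAG1 libraries. It was 1.86-fold lower with no overlap, a log2 fold change of −0.89 (SE 0.08, adjusted p = 3.60e-06). Sod2, the mitochondrial superoxide dismutase, had 148 CPM in each of the control libraries and 207, 204 and 215 CPM in the JAG1 libraries. Sod2 rose by 0.50 on the log2 scale (SE 0.05, adjusted p = 5.51e-06). The SD of its control libraries, 0.156 CPM (n = 3), is smaller than counting error alone would give and does not measure the precision of the level. Sod1, its cytosolic counterpart, went from 1295 ± 84.9 to 1553 ± 30.4 CPM (SD, n = 3), or a log2 change of 0.26 (SE 0.06, adjusted p = 0.00204). Gpx1, the abundant glutathione peroxidase of the cytosol, rose from 99.0 ± 6.19 to 123 ± 8.79 CPM (SD, n = 3), or a log2 change of 0.32 (SE 0.07, adjusted p = 0.00244). Gpx4, which reduces lipid peroxides in membranes, overlapped between the groups, with a log2 fold change of 0.09 (SE 0.07, adjusted p = 0.308). It was called only without control replicate 1, at 0.17 (adjusted p = 0.0300). Reads of Gpx4 could not be placed by sequence alone, since 98.4% of the 50-base words in the last 300 bases of its transcript also occur in the pseudogene Gpx4-ps2.

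The ferritin chains moved in opposite directions. Ferritin stores iron in a shell of heavy chains, which oxidize it, and light chains, which help it to mineralize. Both genes are known to carry antioxidant response elements. The promoter windows searched here held no match to the core for either gene, and sequence further upstream was not searched. Ftl1, the light chain, had 807, 733 and 739.7 CPM in control and 256, 269 and 271 CPM in JAG1 libraries. It was 2.87-fold lower, a log2 fold change of −1.52 (SE 0.05, adjusted p = 2.16e-09). Fth1, the heavy chain, had 2163, 2103 and 2134 CPM in control and 2745, 2960 and 2891 CPM in JAG1 libraries, a log2 fold change of 0.43 (SE 0.05, adjusted p = 2.40e-05). Neither gene overlapped between the groups. Fth1 lies on chromosome 19, whose 417 tested genes outside the defense genes had a median log2 fold change of 0.61, above that of Fth1. Of these 417 genes, 74.1% were higher, and the part of the chromosome in the value of Fth1 was not tested. The number of Fth1 reads per Ftl1 read, again a pair chosen after the values were seen, was 2.68, 2.87 and 2.88 in control and 10.7, 11.0 and 10.7 in JAG1 libraries. For Ftl1, 65.7% of the 50-base words near the 3′ end occur in other annotated genes, most of them in the pseudogene Ftl1-ps1, and how the counting placed such reads is not given in the sources used here, while the words of Fth1 occur in no other.

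**Figure D3:**
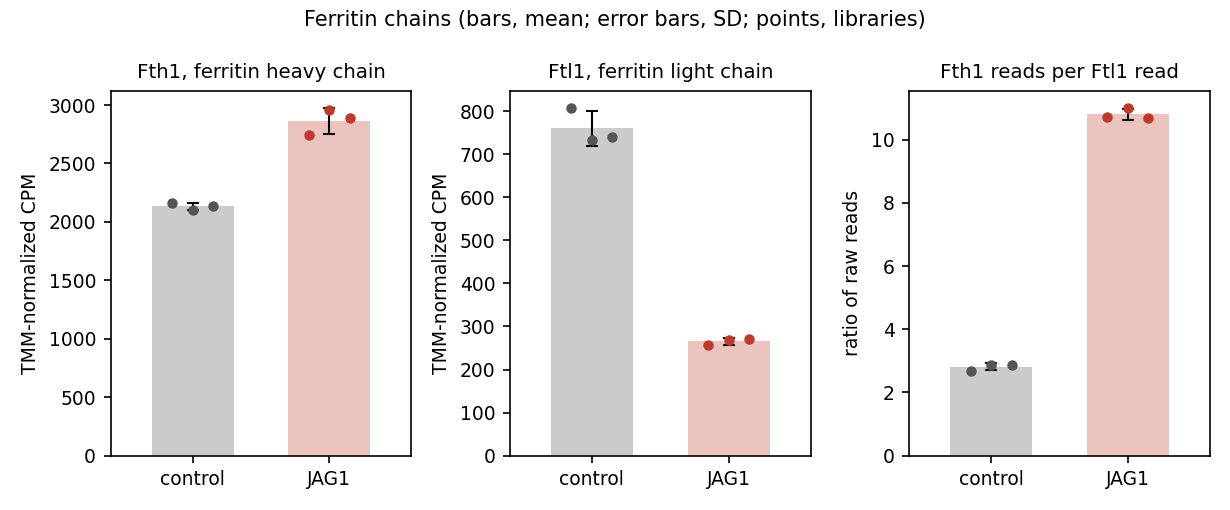
CPM of the ferritin heavy chain gene Fth1 and light chain gene Ftl1, and raw Fth1 reads per Ftl1 read, in control and JAG1 libraries; bars are means of 3 libraries from 0, error bars are SD and points are libraries. Fth1 rose from 2133 to 2866 CPM, Ftl1 fell from 760.1 to 265 CPM, and the ratio went from 2.81 to 10.8. Fth1 lies on chromosome 19, whose other tested genes had a median log2 fold change of 0.61.

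Glutathione S-transferases join glutathione to electrophiles, and most genes of the classes A and M lie side by side on a chromosome. Of the 21 transferase genes, 14 were tested, 7 were higher (50%, beside 27.4% of all tested genes), 6 were lower (42.9%, beside 27.7%) and Gsta2 was not called. Within the classes A, M and O, neighboring genes went opposite ways. The other 7 had few or no reads: Gstm3, Gstm6 and Gstt1 had at most 8 reads in a library, Gstm4, Gstt2 and Gstt4 at most 1, and Gstk1 was listed at 0 in every library.

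In the class A cluster on chromosome 9, Gsta4, an alpha class enzyme known for conjugating the lipid peroxidation product 4-hydroxynonenal, lies at chr9:78191966-78209349, and Gsta1 begins 21319 bases further on, at chr9:78230669-78242683. Gsta4 had 214, 205 and 208 CPM in control and 78.3, 81.2 and 83.3 CPM in JAG1 libraries. It was 2.59-fold lower, a log2 fold change of −1.37 (SE 0.05, adjusted p = 3.24e-09), and the groups were far apart. Gsta1 had 10.3, 11.1 and 8.27 CPM in control and 18.8, 18.03 and 19.6 CPM in JAG1 libraries, a log2 fold change of 0.93 (SE 0.11, adjusted p = 3.73e-05). The value of Gsta1 cannot be told apart from that of its near copy Gm3776, which shares 79.7% of the 50-base words at its 3′ end and whose row rose by 0.92 on the log2 scale (SE 0.10, adjusted p = 1.21e-05), whereas Gsta4 shares none with another gene. Gsta2, at the far end of the cluster, had a log2 fold change of −0.12 (SE 0.18, adjusted p = 0.582) and shares 40.6% of its words with other genes. Gsta3 lies apart, on chromosome 1, and had 20, 25 and 18 reads in control and 12, 7 and 4 reads in JAG1 libraries, a log2 fold change of −1.27 (SE 0.38, adjusted p = 0.0158). The call of Gsta3 was lost without control replicate 2 (−1.09, adjusted p = 0.0684) and without JAG1 replicate 3 (−0.98, adjusted p = 0.0621). Summed over the class, whose reads came mostly from Gsta4, the level went from 223 ± 4.49 to 103 ± 2.87 CPM (SD, n = 3), a log2 difference of −1.12 (two-sided exact permutation test, p = 0.1, the smallest that 3 against 3 libraries can give).

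In the class M cluster on chromosome 3, the order along the chromosome was Gstm5, Gstm7, Gstm6, Gstm3, Gstm2, Gstm1 and Gstm4, and the tested genes read down, up, down and up in that order. Gstm5 had 34, 37 and 40 reads in control and 8, 5 and 7 reads in JAG1 libraries, and at 4.83-fold lower had the lowest log2 fold change of the 35 tested defense genes, −2.27 (SE 0.30, adjusted p = 6.97e-05). Its neighbor Gstm7 had 11, 17 and 8 reads in control and 30, 16 and 23 reads in JAG1 libraries, a log2 fold change of 1.10 (SE 0.34, adjusted p = 0.0181) that rests on few reads. The call of Gstm7 was lost in 4 of 15 other settings. Among them were those without control replicate 3 (0.88, adjusted p = 0.0599), JAG1 replicate 1 (1.01, adjusted p = 0.0731) or JAG1 replicate 3 (1.08, adjusted p = 0.0516). Gstm2 fell by a smaller amount, from 20.4 ± 1.12 to 16.6 ± 1.17 CPM (SD, n = 3), or a log2 change of −0.30 (SE 0.09, adjusted p = 0.0147). Its call was lost without control replicate 2, JAG1 replicate 1 or JAG1 replicate 3, with adjusted p between 0.05003 and 0.0663. Gstm1, the most read gene of the class, had 29.9, 28.1 and 24.1 CPM in control and 35.4, 37.1 and 33.0 CPM in JAG1 libraries, a log2 fold change of 0.36 (SE 0.09, adjusted p = 0.00615). None of the 7 class M genes shared a 50-base word at its 3′ end with another gene. Over the whole class the rises and falls nearly cancelled, with 50.6 ± 4.21 CPM in control and 54.0 ± 3.20 CPM in JAG1 libraries (SD, n = 3; two-sided exact permutation test, p = 0.4).

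The class P and class O genes lie on chromosome 19. Gstp1 had 47.8, 45.4 and 44.1 CPM in control and 74.9, 76.2 and 83.9 CPM in JAG1 libraries, a log2 fold change of 0.77 (SE 0.07, adjusted p = 2.68e-06). Gstp2 had 47.6, 43.8 and 42.1 CPM in control and 74.0, 75.7 and 77.8 CPM in JAG1 libraries, a log2 fold change of 0.77 (SE 0.07, adjusted p = 2.34e-06). The last 300 bases of the 2 transcripts are shared to 100%, so that Gstp1 and Gstp2 are not separate measurements, although they count as 2 among the higher genes above. Summed, the pair went from 90.3 ± 4.74 to 154 ± 6.75 CPM (SD, n = 3), a level that counts the same reads again if the authors' counting put them on both rows. Gsto1, an omega class enzyme that reduces dehydroascorbate, rose from 122 ± 1.51 to 149 ± 3.02 CPM (SD, n = 3), or a log2 change of 0.29 (SE 0.05, adjusted p = 0.000473). Gsto2, whose annotation begins 647 bases after the end of Gsto1, had 4.197, 4.51 and 3.77 CPM in control and 1.94, 1.995 and 3.95 CPM in JAG1 libraries. JAG1 replicate 3 lay inside the control range, and the log2 fold change of −0.67 (SE 0.25, adjusted p = 0.0440) was −1.07 (adjusted p = 0.00192) without it. The call was lost without control replicate 2, JAG1 replicate 1 or JAG1 replicate 2, with adjusted p between 0.123 and 0.182. Of the single genes, Gstt3 fell from 4.94, 3.92 and 4.03 CPM to 1.74, 2.27 and 2.25 CPM, a log2 fold change of −1.05 (SE 0.19, adjusted p = 0.000708). Gstz1, which also works in tyrosine breakdown, rose from 12.3 ± 0.987 to 16.7 ± 1.11 CPM (SD, n = 3), or a log2 change of 0.43 (SE 0.10, adjusted p = 0.00329).

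**Figure D4:**
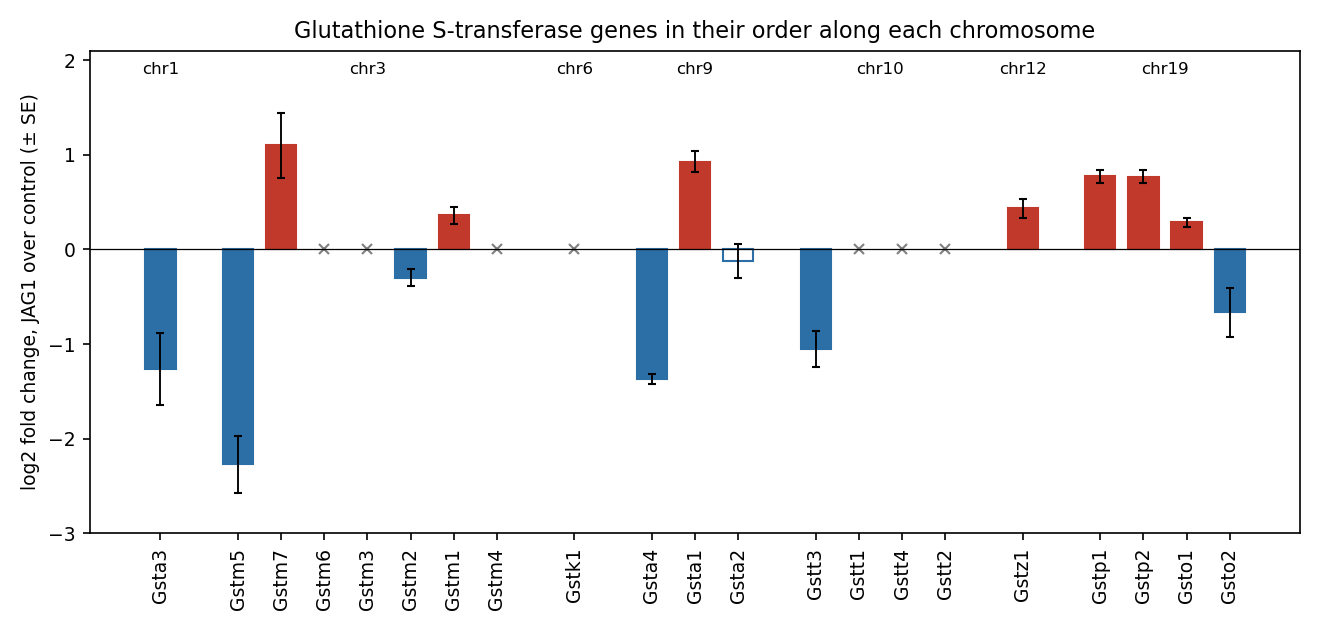
Log2 fold change (JAG1 over control) of the 21 glutathione S-transferase genes in their order along each chromosome; bars run from 0, error bars are standard errors, filled bars passed an adjusted p of 0.05, the open bar did not, and crosses are genes with too few reads. On chromosome 3 Gstm5 (−2.27) stands beside Gstm7 (1.10), both with few reads, and on chromosome 9 Gsta4 (−1.37) stands beside Gsta1 (0.93).

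Chromosome 19 as a whole was shifted in these libraries. Its 417 other tested genes had a median log2 fold change of 0.61, and 74.1% of them were higher and 7.19% lower. Of the 5 defense genes on it, Fth1, Gstp1, Gstp2 and Gsto1 were higher, with log2 fold changes of 0.43, 0.77, 0.77 and 0.29, and Gsto2 was lower. No defense gene lies on chromosome 15, whose genes were also shifted, with a median of −0.53 over 459 tested genes. Medians of the remaining chromosomes are not given here. The part of the chromosome in the values of the 5 genes was not tested. Counted without them, 9 of 30 defense genes were higher (30%) and 12 were lower (40%), beside 26.5% each way of the 10831 tested genes outside chromosomes 15 and 19, and their median log2 fold change was −0.12.

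The other genes of the pathway, from lists of 81 genes, also went both ways: the median log2 fold change of the 70 tested was −0.03, and 23 were higher (32.9%, beside 27.4% of all tested genes) and 26 lower (37.1%, beside 27.7%). Among 12 partners and regulators of NRF2, 5 were higher (41.7%) and 6 lower (50%), beside 27.4% and 27.7% of all tested genes. Mafk, a small MAF partner of NRF2, went from 4.38 ± 0.731 to 10.9 ± 0.337 CPM (SD, n = 3), or a log2 change of 1.32 (SE 0.14, adjusted p = 1.13e-05), and Maff, another small MAF, had 0.90 (SE 0.13, adjusted p = 0.000150). Sqstm1, whose product p62 draws KEAP1 into autophagy, fell from 278 ± 8.86 to 162 ± 5.32 CPM (SD, n = 3), or a log2 change of −0.78 (SE 0.05, adjusted p = 2.28e-07). Bach1, a repressor that competes with NRF2 at the response element, had −0.56 (SE 0.11, adjusted p = 0.00109). Mafg, the remaining small MAF gene, had −0.19 (SE 0.06, adjusted p = 0.0150), so that the 3 small MAF genes did not share a direction. Maff lies on chromosome 15, and the counts of the pathway lists given here and below were not split by chromosome.

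Among 19 other tested NRF2 targets, 6 were higher (31.6%) and 7 lower (36.8%), beside 27.4% and 27.7% of all tested genes. Ptgr1, which reduces reactive aldehydes and prostaglandins, fell from 31.9 ± 1.19 to 11.0 ± 0.663 CPM (SD, n = 3), or a log2 change of −1.53 (SE 0.08, adjusted p = 6.21e-08), close in size to that of Nqo1. Osgin1, a stress-induced growth inhibitor, had a log2 fold change of −1.18 (SE 0.12, adjusted p = 9.71e-06). The highest values were those of Fech, which inserts iron into heme, at 0.66 (SE 0.10, adjusted p = 0.000139), and of the carbonyl reductase Cbr3, at 0.60 (SE 0.09, adjusted p = 0.000229).

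Among 16 other tested glutathione genes, 6 were higher (37.5%) and 4 lower (25%), beside 27.4% and 27.7% of all tested genes. Mgst2, a membrane-bound transferase, fell from 58.2 ± 3.20 to 10.2 ± 2.50 CPM (SD, n = 3), or a log2 change of −2.50 (SE 0.14, adjusted p = 5.25e-08). Ggt1, which begins the breakdown of glutathione outside the cell, was called lower (adjusted p = 4.21e-05), with 26, 34 and 19 reads in control libraries and 1, 0 and 0 in JAG1 libraries, too few for a fold change. Gstcd, a gene with a transferase-like domain, had a log2 fold change of 0.96 (SE 0.21, adjusted p = 0.00266), and Chac2, which breaks glutathione down inside the cell, had 0.88 (SE 0.17, adjusted p = 0.00107).

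Among 16 other tested thioredoxin, peroxiredoxin and superoxide genes, 5 were higher (31.2%) and 7 lower (43.8%), beside 27.4% and 27.7% of all tested genes. Sod3, the superoxide dismutase that is secreted, went from 9.02 ± 1.32 to 48.4 ± 2.103 CPM (SD, n = 3), or a log2 change of 2.42 (SE 0.10, adjusted p = 7.67e-09), so that all 3 dismutase genes were higher. Prdx5, on chromosome 19, had a log2 fold change of 1.07 (SE 0.07, adjusted p = 3.39e-07). Prdx3 and Ccs, also among the higher genes, lie on chromosome 19 as well, and Txn2, among the lower genes, lies on chromosome 15. Nxn, the thioredoxin relative nucleoredoxin, fell from 308 ± 16.5 to 92.5 ± 5.94 CPM (SD, n = 3), or a log2 change of −1.73 (SE 0.06, adjusted p = 2.60e-09), and Sesn2, a sestrin, had −1.48 (SE 0.29, adjusted p = 0.00125).

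Of 7 iron handling genes, 1 was higher (14.3%) and 2 were lower (28.6%), beside 27.4% and 27.7% of all tested genes. In either direction 42.9% of them were called, below the 55.1% of all tested genes. Tfrc, the transferrin receptor that brings iron in, went from 108 ± 1.89 to 141 ± 4.41 CPM (SD, n = 3), or a log2 change of 0.38 (SE 0.05, adjusted p = 8.19e-05). Slc40a1, the iron exporter ferroportin, had 35, 25 and 29 reads in control and 1, 1 and 3 reads in JAG1 libraries and was called lower (adjusted p = 3.08e-05), again with too few reads for a fold change. Slc11a2, an iron importer of endosomes on chromosome 15, had a log2 fold change of −0.63 (SE 0.06, adjusted p = 7.27e-06). These stand beside the rise of Fth1 and the fall of Ftl1.

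**Figure D5:**
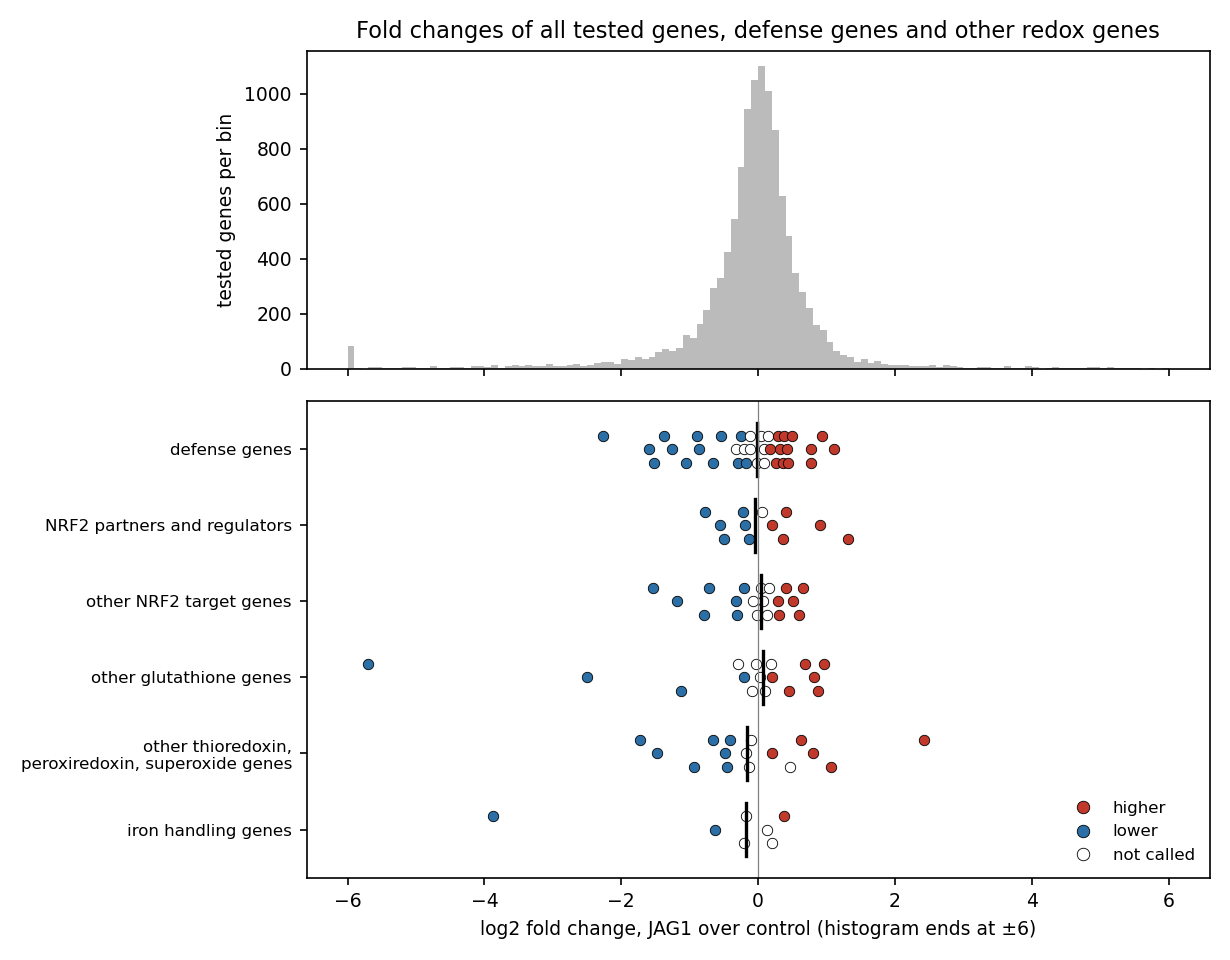
Upper panel: number of tested genes by log2 fold change (JAG1 over control), with genes beyond ±6 in the end bins. Lower panel: the 35 tested defense genes and the 5 lists of other pathway genes on the same axis, colored where the adjusted p was under 0.05, with the median of each list as a bar. Every list holds called genes on both sides of 0, and the medians lie between −0.18 for the iron handling genes and 0.06 for the other glutathione genes, with −0.02 for the defense genes.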

How the data were processed

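RNA libraries of control and JAG1-overexpressing Ink4a-/- astrocytes (3 each) were made by the QuantSeq 3′ method. The authors deposited, for each library, raw read counts per gene, which were used for all results, and their own normalized values as log2, which were used only in an alternative. The submitters' processing notes name Bowtie2, bedtools, edgeR and the build GRCm38 (mm10); their settings are not given in the sources used here. Coordinates come from RefSeq, GRCm38.p6.

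Counts were analysed in R 4.3.3 with edgeR 4.0.16: filterByExpr at a minimum count of 10 left 11712 of 23282 rows, followed by TMM normalization, the quasi-likelihood test without further terms and Benjamini-Hochberg adjustment over all tested genes, with a threshold of 0.05. A gene is called higher, lower, risen or fallen only past this threshold. P-values measure the spread between libraries, which may be technical. A count of 3, the detection limit for counting error alone, equals 0.148 to 0.206 CPM. Class sums were compared by exact permutation.

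Values per library are given for Nfe2l2, Keap1, Gclc, Gclm, Slc7a11, Nqo1, Hmox1 and called members with an absolute log2 fold change of at least 0.58 and a mean of at least 5 CPM, and for further members where a single library bears on the result; from each pathway list, the called genes with the largest rises and falls (2 each at most) are named. Pathway and marker lists were written from general knowledge. Members, lists and alternatives were chosen with earlier results of these data known. Shared sequence was taken as 50-base words in the last 300 bases of the longest coding transcript of each gene (GENCODE M21). Alternatives used DESeq2 1.42.0 and limma 3.58.1.

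On simulated counts for JAG1 against control with 200 changed among 11604 genes, 71% of changes of 0.58 and 93% of changes of 1 (log2) were recovered. Of the calls, 9.39% were false, a share above the threshold of 0.05. In the data 55.1% of tested genes were called, far more than were changed in the simulation, so these rates cannot be carried over. The deviations of same-numbered libraries from their group means had correlations of 0.148, 0.0614 and 0.119, not all above the limit of 0.1 set for pairing, so numbers were not used as pairs.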

Additional observations from a re-analysis of the deposited data

How the results depend on the processing

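Of the 26 called defense genes, 19 kept their direction and stayed past the threshold under all 15 settings run on single genes (other normalizations, filters and tests, the deposited log2 values, the replicate block and each library left out). The others were Gss, Gsta3, Gstm2, Gstm7, Gsto2, Prdx6 and Txn1. With each library left out in turn, 12 to 15 defense genes were higher and 8 to 14 lower. The lowest count of lower genes, 8, came without control replicate 2, when Gss, Gsta3, Gstm2, Gsto2 and Txn1 were no longer called. Keap1, which was not called, ranged from −0.0682 to 0.000319 with a library left out and changed sign only without control replicate 1. Of the other genes not called, Gsr was called in 5 of the 15 settings, Slc7a11 in 3, and Hmox1 and Gpx4 in 1 each. A fold change of at least 1.5 left 1395 higher and 1711 lower among all tested genes, 4 higher among defense genes, and 12 higher and 14 lower among the genes of the pathway lists. With the replicate number as a block, 13 defense genes were higher and 13 lower, as without it, with Gsr called (−0.30, adjusted p = 0.00603) and Gss not (−0.18, adjusted p = 0.0588), and all tested genes gave 3380 and 3331. Each library correlated best with its own number, a hint from the data and not from the design. The settings moved the median log2 fold change of all genes by between −0.025 and 0.0145. Without the low-count filter 41 defense genes were tested, with 13 higher and 13 lower, and Gstk1, at 0 in every library, could not be.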
